A study of Mus musculus with 7 samples.

Results

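The cells described here were gated as pericytes and other mural cells, the contractile support cells of blood vessels, in the mouse ovary from E14.5 to P5 (E, embryonic day; P, postnatal day). A cell was taken as a member if it had at least 1000 detected genes, at least 2 unique molecular identifiers (UMIs, each standing for 1 captured transcript) of Rgs5, at least 1 UMI of Pdgfrb and Notch3 together, none of Cdh5 and Pecam1, and at most 1 of Dazl and Ddx4. In all, 338 of 31790 cells with at least 1000 genes met this gate, 1.06% of the 5 libraries that it covers; the 7 libraries of the series hold 44006 such cells. Of the members, 284 had at least 2 UMIs of the further pericyte genes Abcc9, Kcnj8, Higd1b and Ndufa4l2 together. The label was not borne out by these genes in the other 54, of which 41 came from E16.5 and held more Col1a1, Dcn and Pdgfra per UMI than the stroma of that library. Pericytes lie against the outside of capillaries inside the basement membrane that they share with endothelial cells. Endothelial cells recruit them by releasing PDGF-BB, which binds the receptor PDGFRB, and Notch ligands on the endothelium act on NOTCH3 in the mural cell. RGS5 shortens signalling from G protein-coupled receptors and is a common pericyte marker. Smooth muscle cells, which wrap larger vessels and carry more contractile protein, express the same marker genes, so that the gate does not divide them from pericytes.

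All ovaries were from untreated wild-type C57BL/6J mice. Embryos gave 3 of the ages (E14.5, then E16.5, then E18.5) and pups 2 (P1, then P5), with 1 library of pooled ovaries at each age, and no age has a replicate. Dissociation in trypsin took 40 min at E14.5 and E16.5, 60 min at E18.5 and 80 min at P1 and P5, so that age, dissociation time and library cannot be told apart. The libraries held 88627169, 125415948, 32566406, 52076402 and 48790024 UMIs in the order of age. The E16.5 library was the deepest, with a median of 12526 UMIs per cell with at least 1000 genes, against 6680, 7340, 7757 and 6974.5 in the other libraries by age. It also stood apart in its cell barcodes. It shared between 0 and 3 barcodes with each other library of the series, whereas the other pairs shared between 22 and 136. The labels name 1 chemistry for all libraries, and the part of this difference in the depth, shares and levels at E16.5 was not tested. By age, 0, 0, 2, 6 and 3 of the member barcodes also occurred in another library, and none of them marked a member there.

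By age, the libraries held 11, 145, 23, 70 and 89 members. E16.5 supplied 42.9% of the members and 60.9% of their 2977913 UMIs. The median depth of a member was 8032, 11557, 6609, 5930.5 and 4577 UMIs. Each library also gave a contrast of 820, 3098, 888, 1842 and 2517 stromal cells, 9165 in all, defined by no Rgs5 UMI and at least 10 UMIs of the fibrillar collagen genes Col1a1, Col1a2 and Col3a1. Their median depths were 6205.5, 11326.5, 6700.5, 6942.5 and 5822 UMIs. Levels are given in CPM: the UMIs of a gene, added up over a class, were divided by all UMIs of that class and multiplied by 1000000. Its 95% interval is an exact Poisson interval that covers counting error only.

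The genes that chose the cells are described first, with no test. Rgs5 (chr1:169655501-169695813, GRCm38, plus strand) stood at 504, 582, 952, 1269 and 1933 CPM in the members from E14.5 to P5, and at 0 in stroma by definition. The interval was 371 to 671 CPM at E14.5 and 1808 to 2063 CPM at P5. Pdgfrb was at 204, 594, 301, 741 and 767 CPM, against 51.1, 70.6, 41.5, 66.1 and 43.1 CPM in stroma. Notch3 (chr17:32120820-32166852, minus strand) was at 21.5, 224, 199, 291 and 213 CPM, against 12.1, 29.3, 19.8, 9.92 and 9.30 CPM in stroma. The collagen genes were not absent from the members. Col1a1, which encodes a chain of type I collagen, was at 172, 982, 867, 152 and 252 CPM in them and at 709, 1412, 1362, 1066 and 1156 CPM in stroma. A member had between 2 and 51 Rgs5 UMIs, and the medians by age were 3, 5, 4, 6 and 7.

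Many members lay close to the gate. Exactly 2 Rgs5 UMIs were counted in 5, 36, 5, 14 and 6 members of the libraries in order of age, and 34, 94, 14, 24 and 13 further cells met every other criterion with 1 Rgs5 UMI. Of the cells just inside, 2, 9, 2, 13 and 5 had at least 2 UMIs of the pericyte genes Abcc9, Kcnj8, Higd1b and Ndufa4l2 together, and of those just outside 15, 33, 7, 16 and 3 had. Germ cells, which should lack Rgs5, were used to see how often stray Rgs5 UMIs occurred. Whether these came from free RNA was not tested. The germ cells were not thinned and were deeper than the members, at a median of 61393 against 4577 UMIs at P5. Of germ cells with at least 5 UMIs of Dazl and Ddx4, 2.79%, 1.18%, 0.526%, 0.465% and 1.69% had 1 or more Rgs5 UMIs, and 0.199%, 0.323%, 0, 0.465% and 0 had 2 or more. The doublet caller Scrublet marked 8 members, 6 at E16.5 and 2 at P5.

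At E14.5 the gate held 0.112% of cells (95% exact binomial interval 0.0560 to 0.201), and at E16.5 it held 1.75% (1.48 to 2.06). The share was 0.677% (0.429 to 1.01) in the E18.5 library. After birth it was 1.40% (1.09 to 1.77) on P1 and 1.68% (1.35 to 2.06) on P5. These shares depended on depth. When each cell was thinned to 2000 UMIs before the gate was applied, 1, 32, 9, 39 and 58 cells remained, or 0.0103%, 0.392%, 0.266%, 0.783% and 1.09%. The E16.5 share was then below those of P1 and P5, whereas at full depth it was above both. E14.5 was lowest at both depths. The gate itself mattered too: counting members with at least 2 UMIs of the pericyte genes alone, the shares at full depth were 0.0816%, 1.26%, 0.530%, 1.36% and 1.62%, with P5 highest. Endothelial cells of the same libraries, taken as cells with at least 2 UMIs of Cdh5 and Pecam1, no Rgs5 and at most 1 UMI of Dazl and Ddx4, numbered 112, 198, 72, 51 and 53. There were 0.0982, 0.732, 0.319, 1.37 and 1.68 members for each endothelial cell, and 0.0141, 0.235, 0.265, 1.86 and 2.52 after thinning. With 1 library per age, no test between ages was possible.

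**Figure D1:**
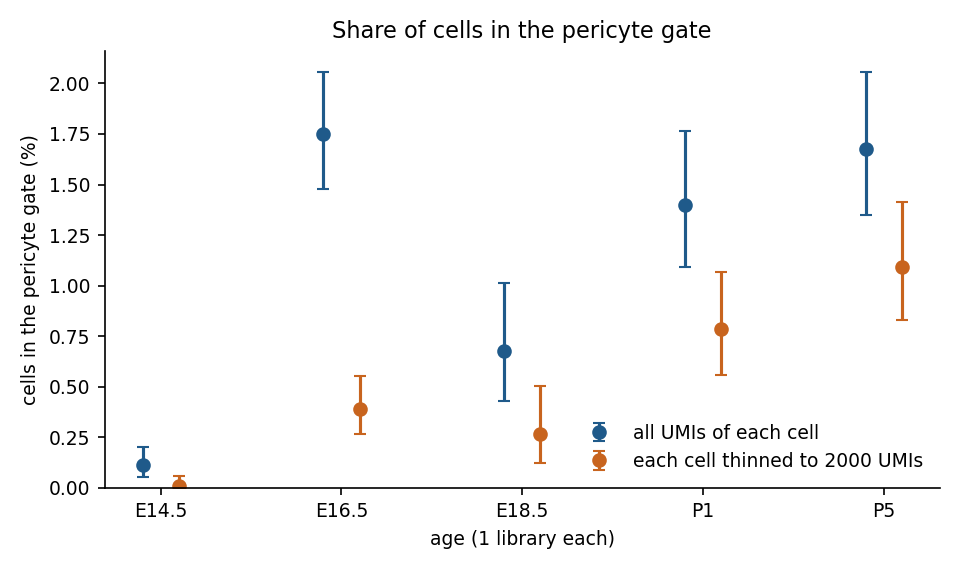
Percentage of cells with at least 1000 genes that met the pericyte gate (vertical axis) at each age (horizontal axis, 1 library each), with all UMIs (blue) and with each cell thinned to 2000 UMIs (orange, cells of at least 2000 UMIs); bars are 95% exact binomial intervals. The E16.5 share was 1.75% at full depth and 0.392% after thinning, and the P5 share 1.68% and 1.09%.

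The members were then compared with stroma across the transcriptome, by summing each class in each library and testing the difference with the library as a block. The p-values therefore measure how evenly a difference recurred over the 5 ages, not over replicate animals. The cells were picked by marker genes, so that any gene found in the same cells as those markers had to differ. Of 11304 genes tested outside the rule, 793 were higher in the members (7.02% of the genes tested) and 690 were lower (6.10%) at an adjusted p under 0.05 in edgeR's quasi-likelihood test. The change was at least 2-fold for 580 and 526 of them. All 5 libraries agreed in direction for 523 of the higher and 604 of the lower genes, and the median log2 fold change of all genes tested was -0.08.

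**Figure D2:**
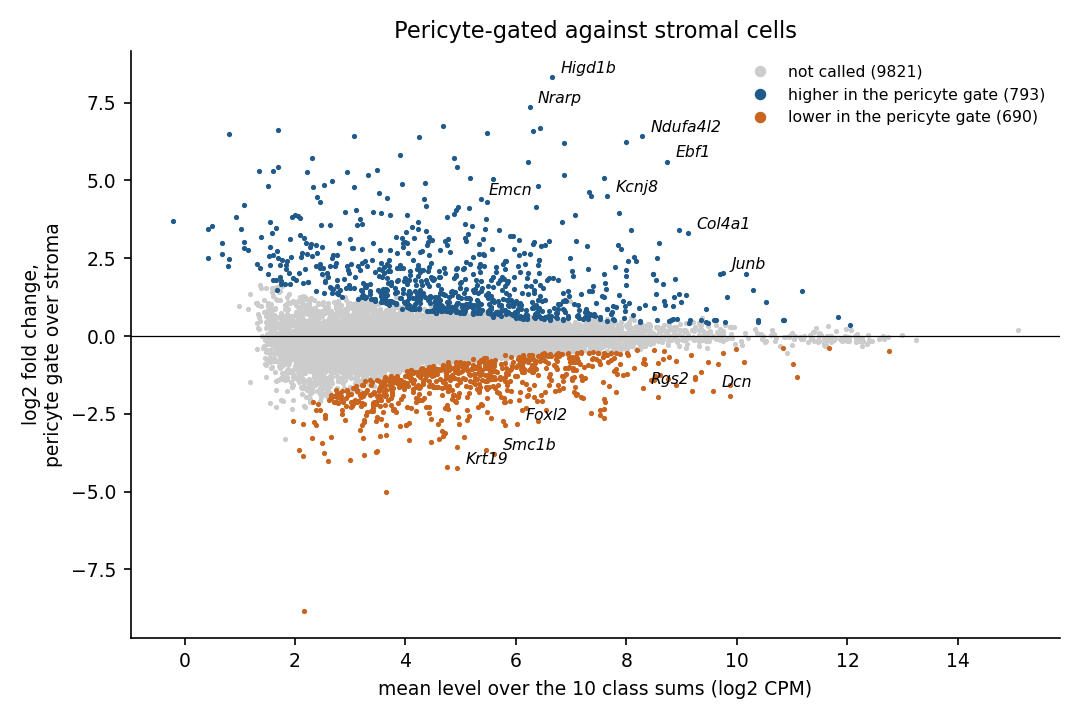
Log2 fold change of pericyte-gated over stromal cells (vertical axis) against mean level over the 10 class sums in log2 CPM (horizontal axis) for the 11304 genes tested; blue points were higher (793), orange points lower (690) and grey points not called. The lowest point is Fhod3, which had no UMI in any member, so that its fitted position is not a measured fold.

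The 12 higher genes named by rule included the mitochondrial genes Ndufa4l2 and Cox4i2, the transcription factor genes Ebf1, Mef2c and Heyl and the potassium channel gene Kcnj8. Ndufa4l2, a hypoxia-inducible relative of a respiratory chain subunit, had the largest fold of the 12. Its level was 462, 432, 596, 728 and 1086 CPM in the members and 16.3, 6.48, 10.1, 6.35 and 3.50 CPM in stroma, a log2 fold change of 6.41 (SE 0.38, adjusted p = 3.601e-10). Cox4i2, which encodes an oxygen-responsive subunit of cytochrome c oxidase, was at 193, 110, 181, 155 and 405 CPM against 8.06, 2.31, 3.10, 2.65 and 7.35 CPM (log2 5.60, SE 0.23). The classes did not overlap for either gene. Apold1 had a log2 fold change of 6.20, Tm4sf1 of 5.09, Tinagl1 of 4.64, Sept4 of 4.52 and Mef2c, a muscle and vascular transcription factor, of 3.41. For each of these 5 genes the lowest library of the members lay above the highest library of stroma. Over all genes tested that held for 2.57%, and the reverse for 3.12%. The named genes cannot be weighed against these shares. The rule for naming them took the largest folds with the same direction in all 5 libraries. It also required at least 10 UMIs in the higher class of each library. Such a choice leaves little room for overlap, so that the separation of the named genes is a description and not a test. Mef2c was held by the endothelial cells as well, at 435, 481 and 287 CPM from E14.5 to E18.5. In the members of those libraries it was at 451, 375 and 693 CPM. Kcnj8, Heyl, Itga1 and Ebf1, also among the 12, are described with their groups below.

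Pericyte markers that the gate did not use were mostly higher in the members. Of 20 such genes, 16 could be tested and 15 were higher in the members, with a median log2 fold change of 4.77 against -0.08 over all genes tested. Kcnj8 and Abcc9 encode the pore and the regulatory subunit of 1 ATP-sensitive potassium channel and lie on the minus strand of chromosome 6 at chr6:142564837-142571614 and chr6:142587862-142702315. Kcnj8 was at 172, 266, 247, 755 and 614 CPM in the members and at 11.3, 11.7, 14.9, 35.5 and 18.2 CPM in stroma (log2 4.49, SE 0.21, adjusted p = 1.117e-11). Abcc9 was at 64.4, 372, 114, 255 and 340 CPM against 9.02, 18.46, 17.3, 29.0 and 18.6 CPM (log2 3.67, SE 0.26, adjusted p = 4.696e-09). Every library of the members lay above every library of stroma for both subunits, and for 13 of the 16 markers tested, against 2.57% of all genes tested. Higd1b, a mitochondrial protein gene used as a pericyte marker, was at 32.2, 127, 78.3, 305 and 612 CPM against 0.322, 0.540, 0.591, 1.68 and 0.459 CPM, a log2 fold change of 8.31 (SE 0.39). Gja4, the gap junction protein connexin 37, had 53.7, 64.5, 78.3, 368 and 480 CPM against at most 3.39 CPM in stroma (log2 6.69, SE 0.28). In the endothelial cells it was at 79.7 CPM at E16.5, above the members of that library. No gene of this list passed 314 CPM at P1 or 124 CPM at P5 in the endothelial cells. Gja4 is also a gene of oocytes. After thinning to 2000 UMIs, 23.7% of germ cells at P5 had a Gja4 UMI, against 1.69% for Acta2 and 3.39% for Dcn. Before thinning these shares were 88.1%, 54.2% and 69.5%, in germ cells with a median of 61393 UMIs.

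The remaining markers of this list differed in size. Cspg4, the NG2 proteoglycan, had a log2 fold change of 3.76, Mcam of 5.05, Aspn of 5.18, Steap4 of 5.31 and Foxs1 of 3.08. Des, the intermediate filament desmin, was at 204, 110, 66.2, 214 and 241 CPM against 39.6, 19.8, 18.9, 27.7 and 28.8 CPM (log2 2.65, SE 0.20). The subunits of the nitric oxide receptor, Gucy1a1 and Gucy1b1, had log2 fold changes of 1.08 and 2.94. Gucy1a1 was therefore high in stroma as well, at 228 to 411 CPM against 494 to 969 CPM in the members. Anpep, often used as a pericyte marker in brain, was the tested gene that was not called (log2 0.31, SE 0.38, adjusted p = 0.71), with 0 to 18.1 CPM in the members and 4.99 to 17.7 CPM in stroma. Vtn, Art3 and Itga7 had too few UMIs for the test. Vtn was at 0, 9.92, 0, 50.0 and 144 CPM in the members and at most at 0.349 CPM in stroma.

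**Figure D3:**
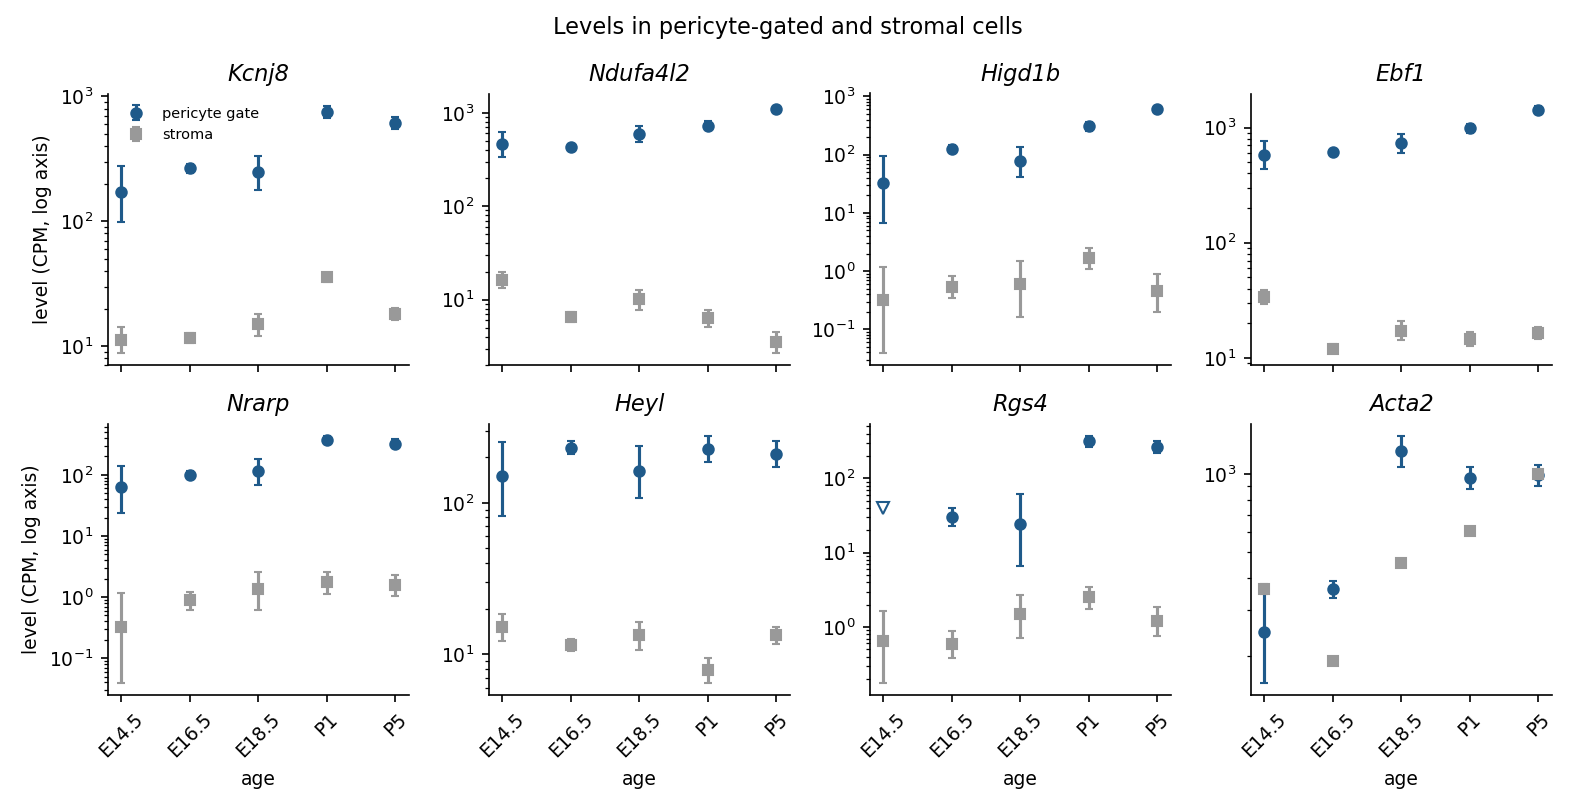
Levels of 8 genes in CPM (vertical axes, logarithmic) at each age (horizontal axes) in pericyte-gated cells (blue circles) and stroma (grey squares), with 95% exact Poisson intervals; an open triangle is the upper limit of a level of 0. Kcnj8, Ndufa4l2, Higd1b, Ebf1, Nrarp and Heyl were separated in every library, whereas Acta2 was at 993 CPM in the members and 999.9 CPM in stroma at P5.

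Notch signalling was represented by its receptors, a ligand and its target genes. When a Notch receptor meets a ligand on a neighbouring cell, its cut intracellular part joins the DNA-binding protein RBPJ and turns on Hes, Hey and Nrarp genes. Of 15 Notch genes other than Notch3, 11 were tested and 8 were higher in the members (median log2 2.55). The largest difference was in Nrarp, a target that feeds back on the pathway, at 64.4, 101, 114, 373 and 325 CPM in the members and 0.322, 0.884, 1.33, 1.75 and 1.55 CPM in stroma (log2 7.35, SE 0.26, adjusted p = 2.473e-13). Heyl was at 150, 231, 163, 227 and 211 CPM against 15.1, 11.54, 13.3, 7.82 and 13.3 CPM (log2 4.14, SE 0.23). Hey2 was at 32.2, 98.6, 42.2, 79.6 and 62.5 CPM against 3.54, 6.55, 1.92, 2.86 and 1.84 CPM (log2 4.42, SE 0.29). The classes did not overlap for these 3 target genes, nor for Notch1, Jag1 and Hes1, 6 of the 11 tested. Over all genes tested, 2.57% were separated in this direction. The gap was within counting error for Hes1, at 356 against 347 CPM at E16.5. That of Jag1 rested on 10.7 CPM in the members at E14.5, which is 1 of their 93173 UMIs. Hes1 had a smaller difference (log2 1.32, SE 0.27, adjusted p = 0.0020), at 429 and 356 CPM in the members at E14.5 and E16.5 against 346 and 347 CPM in stroma, and at 1407 against 265 CPM at P5. Hey1 (log2 1.08) was called with an adjusted p of 0.024, which became 0.10 without E16.5 and 0.15 without P5. It was also above 0.05 without the library block (0.11) and after thinning (0.0846).

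Among the receptors and ligands, Notch1 was higher in the members (42.9, 101, 126, 88.7 and 79.7 CPM against 15.3, 19.7, 17.2, 14.8 and 11.8 CPM, log2 2.55, SE 0.22), and so was the ligand gene Jag1 (10.7, 56.2, 132, 34.1 and 40.9 CPM against 6.28, 7.58, 9.46, 6.08 and 4.71 CPM, log2 2.98, SE 0.29). Notch2, Rbpj and Lfng were not called, with log2 fold changes of -0.51, -0.16 and 0.60. Nrip2 was higher (log2 3.59, SE 0.45), at 0 CPM in the members at E14.5 and 81.9 CPM at P5. The ligand Dll4 had no UMI in the members of any library. It was at 33.3, 111, 29.6, 164 and 202 CPM in the endothelial cells, where Heyl was at 0 to 8.47 CPM and Nrarp at 127, 114, 97.1, 96.8 and 141 CPM. The members and the endothelial cells thus both held Nrarp, and Heyl stood higher in the members in each library, a difference that was not tested. Hes1 was at 310, 844, 181, 2883 and 3936 CPM in the endothelial cells. In the members it was at 429, 356, 705, 1003 and 1407 CPM, lower at E16.5, P1 and P5 and higher at E14.5 and E18.5, also without a test.

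The RBPJ motif was looked for in the promoters of this group, in which 8 of the 11 genes tested were higher. The letters GTGGGAA were searched on both strands in the 250 bases before the start of each gene in RefSeq (GRCm38.p6). They occurred in 5.42% of 32851 promoters. Of 16 Notch genes with Notch3 included, 12 had a promoter in the table and 2 held the motif, Hey2 and Lfng. The promoters of the tested targets with an entry, Hey2 (chr10:30842784-30843033, minus strand) and Nrarp (chr2:25180508-25180757, plus strand), are shown 5′ to 3′ so that the window with a match can be set beside the one without, with the motif in capitals.
Hey2: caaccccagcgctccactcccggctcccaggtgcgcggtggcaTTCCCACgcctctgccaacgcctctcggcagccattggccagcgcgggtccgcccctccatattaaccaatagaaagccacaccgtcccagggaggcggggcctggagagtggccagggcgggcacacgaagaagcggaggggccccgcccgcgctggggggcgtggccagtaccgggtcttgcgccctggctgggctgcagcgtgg
Nrarp: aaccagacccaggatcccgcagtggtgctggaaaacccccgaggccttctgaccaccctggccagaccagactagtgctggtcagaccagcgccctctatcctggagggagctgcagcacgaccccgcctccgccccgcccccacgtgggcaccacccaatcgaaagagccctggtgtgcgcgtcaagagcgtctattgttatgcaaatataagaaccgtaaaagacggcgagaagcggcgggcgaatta
The match in Hey2 begins 207 bases before the start and reads on the strand opposite to the gene. A match is a string of letters and not a measured site. That Nrarp has none says only that these letters are not in this window.

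PDGF ligands and the other PDGF receptor went in different directions. Pdgfra, the receptor of fibroblast-like cells, was lower in the members at 53.7, 105, 12.04, 2.27 and 23.7 CPM against 72.8, 197, 86.9, 100 and 143 CPM (log2 -1.80, SE 0.34, adjusted p = 0.00079). Pdgfc (log2 -1.79) and Pdgfrl (log2 -1.07) were lower as well, and Pdgfa was higher (log2 1.82, SE 0.29), so that 1 of the 5 genes tested was higher and 3 were lower. Pdgfrl was not called without E14.5, E18.5 or P1. Pdgfb, the ligand of PDGFRB, was close to 0 in both classes, at 0 to 8.62 CPM in the members and 0.483 to 1.62 CPM in stroma. In the endothelial cells it was at 38.9, 131, 23.1, 99.2 and 69.2 CPM.

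Receptors for vessel wall signals were among the higher genes. Of 20 genes of angiopoietin, TGF-beta, sphingosine phosphate, endothelin and VEGF signalling, 17 were tested, 6 were higher and 1 was lower. Both endothelin receptors were higher. Ednra was at 32.2, 224, 169, 205 and 207 CPM against 57.4, 92.1, 71.0, 65.3 and 56.6 CPM (log2 1.38, SE 0.23), with E14.5 in the opposite direction. Ednrb was at 21.5, 81.0, 54.2, 225 and 207 CPM against 3.06, 6.46, 2.96, 8.66 and 7.58 CPM (log2 4.31, SE 0.26). Angpt2, an antagonist ligand of the endothelial receptor TIE2, was at 0, 50.1, 60.2, 72.8 and 56.0 CPM against 0.908 to 3.98 CPM (log2 4.60, SE 0.44), and Angpt1, the agonist, was not called (log2 0.28). The sphingosine phosphate receptor S1pr3 (log2 2.95), the growth factor Vegfc (1.91) and the TGF-beta co-receptor Eng (1.17) were higher, and Tgfb3 was lower (log2 -0.99, SE 0.26). The call of Vegfc was lost without E16.5 and that of Tgfb3 without P5.

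Basement membrane genes were higher than in stroma for the type IV collagen chains and the integrin that binds them. From E14.5 to P1 the list summed to 2887, 7366, 5817 and 9178 CPM in the members. In the endothelial cells it summed to 5204, 7477, 4170 and 5326 CPM. The endothelial sum was thus higher at E14.5 and E16.5 and lower at E18.5 and P1, without a test. Of 18 genes, 16 were tested, 7 were higher and 1 was lower. Col4a1 was at 193, 1746, 939, 1128 and 1045 CPM in the members and 51.6, 155, 88.4, 82.4 and 102 CPM in stroma (log2 3.31, SE 0.22, adjusted p = 1.615e-09). Col4a2, its partner chain on the opposite strand of chromosome 8, was at 161, 921, 476, 839 and 1023 CPM against 56.9, 109, 54.6, 86.5 and 112 CPM (log2 2.98, SE 0.22). Itga1, a collagen-binding integrin subunit, was at 225, 627, 367, 500 and 618 CPM against 15.8, 29.6, 28.7, 37.8 and 41.4 CPM (log2 3.96, SE 0.17). The classes did not overlap for these 3 genes and Lama4, and overlapped for the other 12 tested. Of all genes tested, 2.57% were separated in this direction. Lama4 (log2 2.31), Itgb1 (0.91), Lamb1 (0.56) and Sparcl1 (0.52) were also higher. Lama2 was lower (log2 -0.86, adjusted p = 0.040), a call that was lost without any 1 of E14.5, E18.5, P1 and P5 (adjusted p = 0.054 to 0.148). Lamb1 lost its call without E16.5, P1 or P5, and Sparcl1 without P1 or P5. The other 8 genes were not called, among them Hspg2 (log2 -0.68, SE 0.23) and Nid1 (0.44, SE 0.18).

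Smooth muscle contractile genes separated the members from stroma far less than the pericyte markers did. Of 16 genes, 14 were tested, 4 were higher and 1 was lower, with a median log2 fold change of 0.51. Cald1 (log2 1.10, SE 0.19), Tpm2 (1.07, SE 0.16), Myh11 (1.27, SE 0.30) and Lmod1 (1.65, SE 0.37) were higher. Myocd, the coactivator of the smooth muscle programme, was lower (log2 -2.25, SE 0.51) and was at 0 to 2.75 CPM in the members. Acta2, smooth muscle actin, was at 247, 361, 1229, 969 and 993 CPM in the members and at 362, 191, 454, 603 and 999.9 CPM in stroma, and the classes overlapped (log2 0.58, SE 0.21, adjusted p = 0.075). Tagln overlapped too, at 32.2, 192, 319, 384 and 491 CPM against 63.0, 115, 196, 292 and 432 CPM (log2 0.45, SE 0.18). At E14.5, 3 members had fewer than 2 UMIs of Abcc9, Kcnj8, Higd1b and Ndufa4l2 together. Their Acta2 was at 862 CPM, against 106 CPM in the other 8. Without the E14.5 library, which has 11 members, 9 contractile genes were higher, with log2 fold changes of 0.80 for Acta2 (SE 0.17, adjusted p = 0.0060) and 0.56 for Tagln (SE 0.14, adjusted p = 0.016). Without P1, 2 were, and Myh11 and Lmod1 lost their calls. Cnn1, a marker of mature smooth muscle, was not called (log2 -1.61, SE 0.68, adjusted p = 0.15), at 0, 2.75, 0, 0 and 4.31 CPM in the members and 2.74, 1.69, 4.88, 5.03 and 43.8 CPM in stroma.

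Ion channels and receptors for vasoactive ligands gave 7 higher and 2 lower genes of 16 tested, from a list of 22. Without E14.5, 10 were higher. Gnb4 (log2 0.91) lost its call without P5 and Ramp1 (log2 -1.45) without E16.5, and after thinning 4 genes were higher. Agtr1a, the angiotensin II receptor, was at 53.7, 61.2, 48.2, 150 and 194 CPM against 3.71, 1.94, 1.33, 1.47 and 1.95 CPM (log2 5.72, SE 0.36, adjusted p = 8.065e-10). Prkg1, the cGMP-dependent protein kinase, had a log2 fold change of 5.18 (SE 0.39), the cation channel Trpc6 of 3.34 and Cacna1c, the pore of the L-type calcium channel, of 2.40. The natriuretic peptide receptors differed in sign: Npr3, the clearance receptor, was higher (log2 3.17, SE 0.32) and Npr1, the signalling receptor, was lower (log2 -1.34, SE 0.35). Avpr1a, a vasopressin receptor, had too few UMIs for the test and was at 0, 3.86, 6.02, 54.6 and 49.6 CPM in the members against 0, 0, 0, 0.279 and 0.0574 CPM in stroma.

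The RGS family to which Rgs5 belongs was divided. Of 18 other RGS genes, 10 were tested, 3 were higher and 3 were lower, with a median log2 fold change of -0.20 against -0.08 over all genes. Rgs4 lies beside Rgs5 on chromosome 1 (chr1:169741477-169747642, minus strand). It was at 0, 30.3, 24.1, 316 and 267 CPM in the members and at 0.644, 0.589, 1.48, 2.51 and 1.21 CPM in stroma (log2 6.52, SE 0.43, adjusted p = 1.855e-09). The endothelial cells held it as well, at 0.926, 9.87, 12.03, 314 and 124 CPM. The 0 at E14.5 was counted in 93173 UMIs and allows up to 32.2 CPM. Rgs16 was at 21.5, 90.4, 24.1, 478 and 709 CPM against 14.0, 7.04, 22.5, 17.1 and 14.8 CPM (log2 3.88, SE 0.52), close to stroma at E14.5 and E18.5. Rgs17 (log2 2.03) was higher, and so was Rgs7bp (2.25), which encodes a binding protein of some RGS proteins, although Rgs17 was at 10.7 CPM against 16.0 CPM in stroma at E14.5 and Rgs7bp at 0 against 0.644 CPM at E14.5 and 4.31 against 9.71 CPM at P5. Rgs2 was lower in every library, at 21.5, 84.9, 72.3, 243 and 235 CPM against 48.5, 294, 576, 651 and 584 CPM (log2 -1.67, SE 0.21), and Rgs10 (log2 -1.47) and Rgs11 (-2.11) were lower too, Rgs11 not without E18.5 or P5.

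Transcription factors known from mural cells were higher for 10 of 14 tested of 21, with a median log2 fold change of 1.47. Ebf1, an early B cell factor also used in mural and fat cells, was at 580, 617, 729, 983 and 1428 CPM against 33.7, 12.1, 17.3, 14.7 and 16.6 CPM (log2 5.61, SE 0.29, adjusted p = 6.274e-11). Epas1, a hypoxia-inducible factor subunit, was at 53.7, 125, 90.3, 139 and 131 CPM against 3.71, 4.52, 4.44, 3.003 and 2.18 CPM (log2 5.09, SE 0.29). The forkhead genes Foxc1 and Foxc2 had log2 fold changes of 5.26 and 4.90. Tbx3 (1.81), Zeb2 (1.68), Prrx1 (1.26), Tbx2 (0.96) and Klf2 (0.81) were higher by less. Klf2 was not called without P1 or P5. Meox1 was lower (log2 -1.81), but not without E18.5, P1 or P5 (adjusted p = 0.053 to 0.081). The brain pericyte factors Foxf2 and Foxd1 had 0 and 1 UMI in the members of all libraries.

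Genes of the other ovarian cell types were mostly lower in the members than in stroma. The stroma was set by Rgs5 and collagen alone, with no limit on pregranulosa or epithelial genes. At E16.5 the pregranulosa list summed to 1430 CPM in stroma, 690 CPM in endothelial cells and 469 CPM in the members. For the surface epithelium list these sums were 264, 107 and 17.6 CPM. The part of such cells within stroma in the lower calls was not tested. In the stromal list, 15 of 20 genes were lower (median log2 -1.08), among them the matrix genes Dcn (10.7, 450, 458, 230 and 422 CPM against 410, 712, 728, 1476 and 2247 CPM, log2 -1.76, SE 0.30) and Mfap5 (log2 -3.66, SE 0.39) and the transcription factor Tcf21 (log2 -1.65, SE 0.29). Few members held much of the Dcn: 2 of 70 at P1 had 63 of 101 UMIs, and 3 of 89 at P5 had 76 of 196, all with fewer than 2 UMIs of the pericyte genes. In the members with at least 2, Dcn was at 0, 209, 357, 90.1 and 266 CPM. Nr2f2, a nuclear receptor of the stroma, was not called (log2 0.32, SE 0.15, adjusted p = 0.18), at 354, 527, 355, 298 and 254 CPM in the members. All 10 pregranulosa genes tested were lower, of which 6 were called without the E16.5 library and 4 with stroma of at least 30 collagen UMIs, with Foxl2 at 0, 21.5, 0, 4.55 and 21.5 CPM against 8.54, 114, 81.9, 84.6 and 158 CPM (log2 -2.83, SE 0.30). The 2 steroid synthesis genes called of 5 tested, Hsd3b1 (log2 -2.17) and Nr5a1 (-1.27), were lower too, Hsd3b1 not without E16.5 and Nr5a1 not without E18.5, P1 or P5. In surface epithelium 4 of 5 tested genes were lower, with Krt19 at 0, 2.75, 12.04, 0 and 0 CPM against 32.9, 49.5, 12.7, 20.2 and 84.1 CPM.

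For germ cells, 7 of 8 tested genes were lower, and the summed level of the list was 42.9, 30.3, 42.2, 50.0 and 21.5 CPM in the members against 209, 271, 114, 183 and 153 CPM in stroma. The gate limited germ cell genes in the members and not in the stroma, and with the same limits put on both classes none of the germ cell genes was called lower. With stroma taken from 30 collagen UMIs upward, 2 were. Erythroid genes were lower for 4 of 7 tested, all haemoglobins, whose near-identical copies Hba-a1 and Hba-a2, and Hbb-bs and Hbb-bt, cannot be counted apart with certainty. The list summed to 1020, 4105, 681, 3325 and 3622 CPM against 3279, 4668, 5110, 9300 and 7056 CPM, with Hbb-bs the most abundant in both classes, and none of the 4 calls remained without the cells that Scrublet marked. Both tested genes of the rete list (Emx2, log2 -1.68, and Epcam, -2.85) and the 1 tested leukocyte gene (Lcn2, log2 -2.11) were lower. Lcn2 was not called by DESeq2 or without the library block. It was not among the genes tested without P1 or P5, after thinning, with the germ cell and endothelial limits on stroma, or with stroma of at least 30 collagen UMIs. Leukocyte genes summed to 0, 3.86, 0, 27.3 and 17.2 CPM in the members, with Ptprc, Csf1r and C1qa at 0 in every library, and glial Sox10 was at 0 as well.

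Few UMIs in the members stood behind most of the 12 lower genes named by rule. Fhod3, a formin, had no UMI in the 2977913 of the members and 6.11 CPM in stroma, and taking 3 counts over the group as the limit it was at least 6.06-fold lower. Ildr2, Hook1, Lypd6 and Cthrc1 had 2 UMIs each in the members, and Rassf10 and Trf 1 each. Without E16.5, Fhod3, Hook1, Rassf10 and Shtn1 had too few UMIs for the test and Trf was not called, as it was not without P5. For Ildr2 the level in stroma was 31.1 times that in the members (95% exact interval 8.59 to 257, counting error only). Krt19 and Upk3b, both genes of the ovarian surface, had log2 fold changes of -4.23 (SE 0.52) and -4.22 (SE 0.50). Smc1b, a meiotic cohesin gene, had 20 UMIs and a log2 fold change of -3.80 (SE 0.39), and its call was lost with the same germ cell limits on both classes (adjusted p = 0.24). Shtn1 (log2 -3.71) and Stk26 (-3.68) complete the list.

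**Figure D4:**
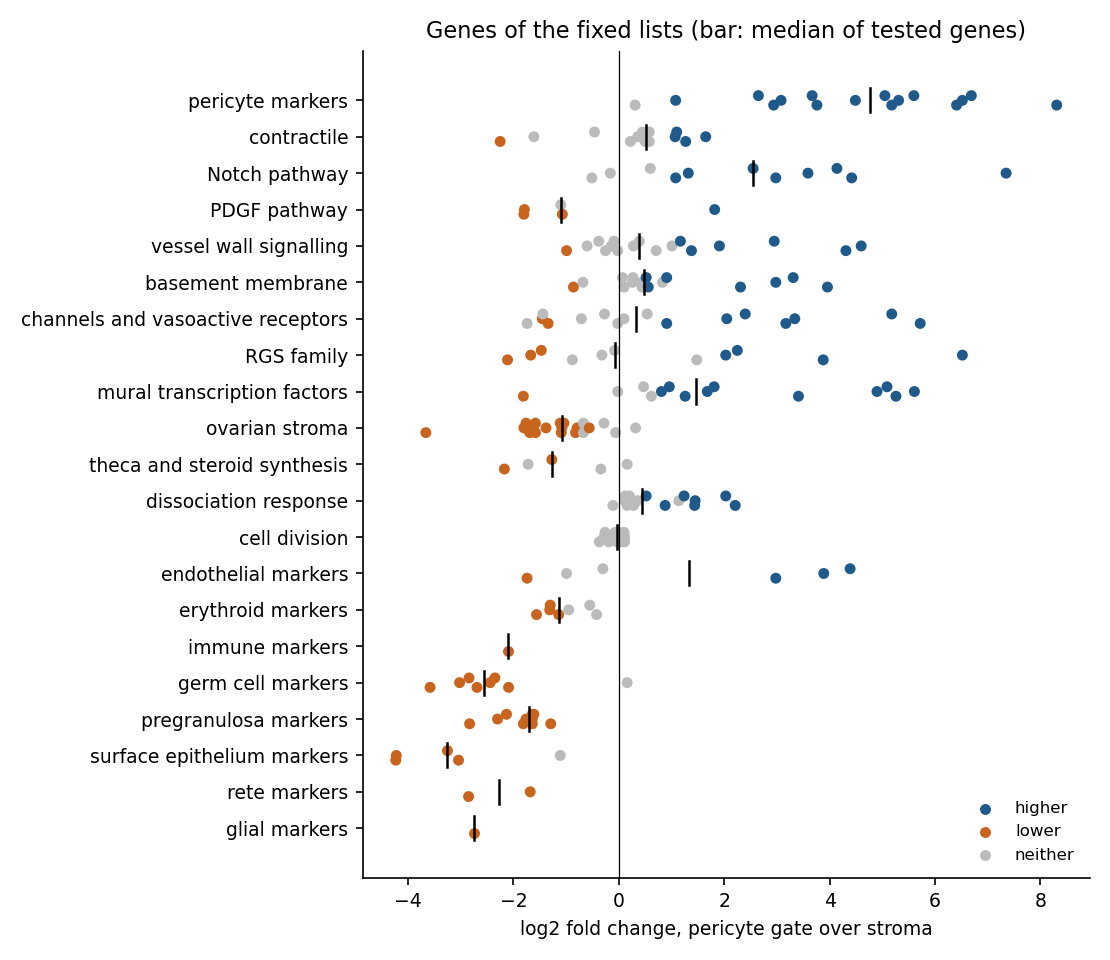
Log2 fold change of pericyte-gated over stromal cells (horizontal axis) for each tested gene of 21 lists (rows); blue, orange and grey points were higher, lower and not called, and the black bar is the median of a list's tested genes. The pericyte markers had a median of 4.77 and the pregranulosa genes of -1.70.

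The endothelial list was mixed. Of 12 genes, 6 could be tested. Emcn (log2 4.39, SE 0.36), Esam (3.89) and Ecscr (2.98) were higher in the members than in stroma and Ramp2 was lower (-1.74). Emcn was the most abundant, at 96.6, 96.4, 96.4, 152 and 157 CPM in the members, 19.7, 6.90, 4.88, 3.003 and 4.14 CPM in stroma and 510, 530, 302, 366 and 243 CPM in endothelial cells. By age, 5, 8, 6, 8 and 7 of the 12 genes had a UMI in the members. Some genes of the list were at or near 0. Cldn5 was at 0, 0, 0, 2.27 and 0 CPM in the members against 959, 452, 648, 1036 and 679 CPM in endothelial cells, and Tie1, Robo4 and Sox18 had no UMI in any library. The whole list summed to 204, 242, 205, 316 and 328 CPM in the members and 5142, 4290, 2895, 5364 and 3414 CPM in endothelial cells. These values are what is left after cells with Cdh5 or Pecam1 had been excluded by the gate.

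Genes that respond to tissue dissociation were higher for 7 of 16, by up to a log2 fold change of 2.21 (Dusp1, SE 0.20). Junb was at 558, 500, 2108, 1729 and 2006 CPM in the members and 333, 121, 386, 401 and 359 CPM in stroma (log2 2.03, SE 0.21). Zfp36 (log2 1.45), Socs3 (1.44), Btg2 (1.24), Hspa1a (0.88) and Jun (0.52) were also higher. Without P1, and likewise without P5, 4 of the 7 were called, and Btg2, Hspa1a and Jun lost the call in both cases. The list summed to 3939, 4612, 10870, 13388 and 13182 CPM in the members for dissociations of 40, 40, 60, 80 and 80 min. In stroma it summed to 4119, 3702, 5845, 6001 and 5589 CPM. From E14.5 to P1 it summed to 4744, 4301, 5176 and 15207 CPM in the endothelial cells. These were above the members at E14.5 and P1 and below them at E16.5 and E18.5, without a test. All classes of a library were dissociated together. The part of dissociation in the levels that differed with age was not tested. None of 14 cell division genes was called in either direction by edgeR or by DESeq2, and none had an unadjusted p under 0.05. Their sum was 2919, 1582, 1361, 1108 and 722 CPM in the members and 1853, 1479, 1091, 1234 and 1440 CPM in stroma.

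The members were not uniform. Kcnj8, Abcc9, Higd1b and Ndufa4l2 together had a median of 7, 12, 6, 11 and 14 UMIs per member in the order of age, with a range from 0 to 56. At least 2 such UMIs were found in 284 members, which by age were 8 of 11, 104 of 145, 18 of 23, 68 of 70 and 86 of 89. In stroma 4.76%, 8.65%, 5.97%, 11.6% and 4.97% of cells had them. Of the 54 members below this number, 41 came from E16.5. Those 41 cells had 2269 CPM of Col1a1, 1075 CPM of Dcn and 303 CPM of Pdgfra, against 486, 209 and 28.2 CPM in the other 104 members of that library and 1412, 712 and 197 CPM in its stroma. Their Rgs5 was at 234 CPM and Pdgfrb at 127 CPM, against 716 and 774 CPM in the other 104. Median depths were similar, at 10739 UMIs for the 41 and 11719 for the 104. The border between them was not sharp. The 12 cells with 2 to 4 UMIs of the pericyte genes had 41 to 273 collagen UMIs, a median of 79.5, against 82 in the 41 cells and 19.5 in the 92 cells with 6 or more, and no cell had 5. Of the 92, 83 still had at least 10 collagen UMIs. The limits of 2 and 6 UMIs were chosen after the values were seen.

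**Figure D5:**
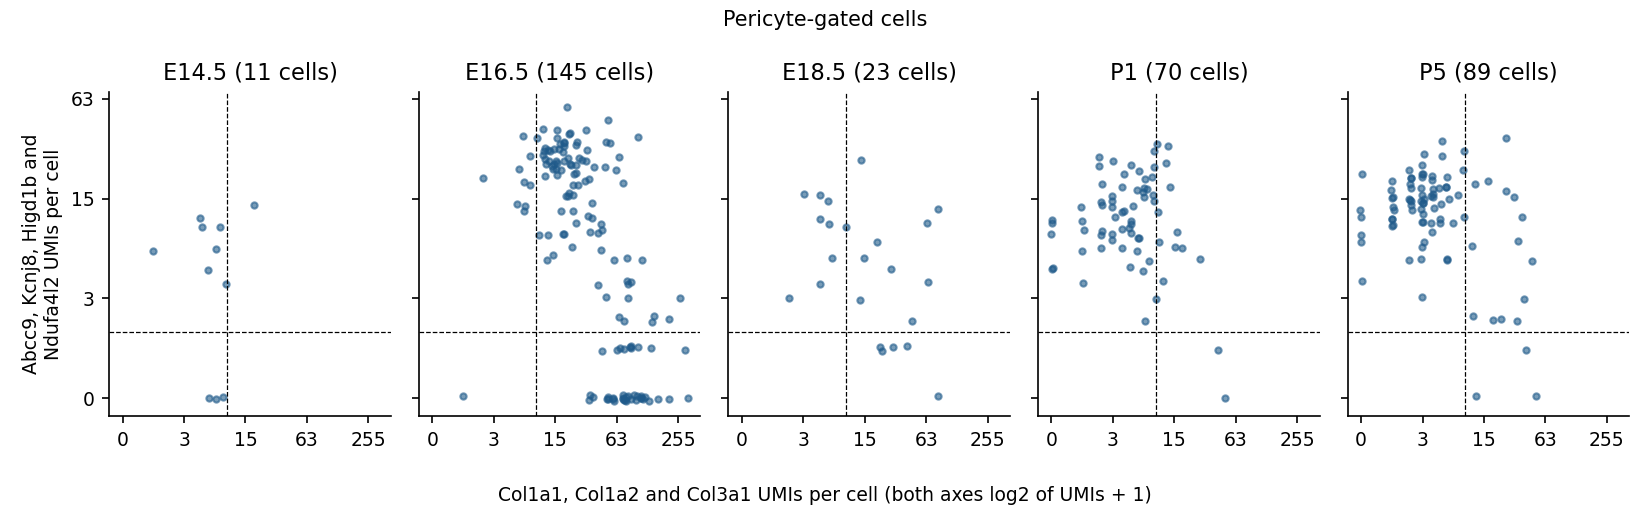
UMIs of Abcc9, Kcnj8, Higd1b and Ndufa4l2 together (vertical axis) against UMIs of Col1a1, Col1a2 and Col3a1 together (horizontal axis, both on a log2 scale of UMIs + 1, with a small random shift) in each pericyte-gated cell at each age; dashed lines mark 2 and 10 UMIs. At E16.5, 135 of 145 cells lie to the right of the collagen line, and 41 lie below the pericyte gene line.

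Collagen UMIs were frequent in the members at E16.5 and E18.5 and less so at the other ages. At least 10 UMIs of the fibrillar collagens, the number that defines stroma, were found in 1 of 11, 135 of 145 (93.1%), 15 of 23 (65.2%), 14 of 70 (20.0%) and 17 of 89 (19.1%) members. Of these, 1, 95, 10, 12 and 14 also had 2 or more UMIs of the pericyte genes. The median per member was 7, 32, 15, 5 and 3 collagen UMIs. The E16.5 members were also the deepest, at a median of 11557 UMIs. Within the 284 members with the pericyte genes, Col1a1 was at 92.4, 486, 554, 92.5 and 206 CPM and Pdgfra at 0, 28.2, 7.59, 2.37 and 24.4 CPM. With these 284 cells alone in place of all members, 877 genes were higher and 1185 lower than in stroma.

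Levels within the members differed between ages for several genes, which is given as a description. Rgs4 (intervals 22.8 to 39.4 CPM at E16.5 and 266 to 373 CPM at P1), Rgs16 (77.1 to 105 and 415 to 547 CPM), Gja4 (53.3 to 77.3 and 314 to 430 CPM) and Nrarp (86.8 to 117 and 318 to 435 CPM) had levels at both postnatal ages above those at every embryonic age. Higd1b had intervals of 111 to 145 CPM at E16.5, 255 to 361 CPM at P1 and 543 to 687 CPM at P5. The E16.5 members include the 41 cells with fewer than 2 UMIs of the pericyte genes, a sum that counts Higd1b. In the members with at least 2, Higd1b was at 176 CPM (154 to 201) at E16.5. It was at 318 CPM (266 to 376) at P1 and 630 CPM (559 to 708) at P5 in the same class, so that E16.5 was again below both. The difference between ages was not tested. Stroma held Rgs4, Rgs16, Gja4 and Nrarp at no more than 22.5 CPM at any age. The share of cells with a UMI was counted for Higd1b, Rgs4 and Gja4, and it too was higher at P1 and P5 than at the 3 embryonic ages. After thinning to 2000 UMIs, Higd1b was found in 9.09%, 20.7%, 17.4%, 34.3% and 66.3% of members, and before it in 18.2%, 43.4%, 17.4%, 57.1% and 82.0%, with the same mixture of cells at E16.5. The share in germ cells was at most 0.930% before thinning. Rgs4 was found in 0, 6.90%, 8.70%, 32.9% and 31.5% of thinned members and in 0, 20.7%, 8.70%, 47.1% and 50.6% before thinning, against at most 1.40% of germ cells. Gja4 was found in 18.2%, 13.8%, 13.0%, 31.4% and 46.1% of thinned members and in 18.2%, 38.6%, 26.1%, 58.6% and 69.7% before thinning, so that its embryonic ages stood in another order than in CPM, with an interval of 2.28% to 51.8% for the 11 cells at E14.5. Genes of dividing cells gave no single order at the earliest ages. Mki67 was found in 0, 19.3%, 17.4%, 7.14% and 5.62% of thinned members, where the 0 of 11 cells at E14.5 has an exact interval up to 28.5% at this depth, and in 54.5%, 32.4%, 34.8%, 17.1% and 6.74% before thinning. Top2a was found in 54.5%, 21.4%, 30.4%, 8.57% and 6.74% of thinned members. In thinned stroma the shares were 10.98%, 14.6%, 5.86%, 9.68% and 8.84% for Mki67 and 26.7%, 16.4%, 12.1%, 13.3% and 14.3% for Top2a. Both genes were least frequent among thinned members at P5, apart from the 0 of Mki67 at E14.5.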

How the data were processed

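Droplet-based single-cell libraries (10x Genomics, v2 chemistry per the labels, not checked for E16.5, whose barcodes stand apart) were sequenced from dissociated ovaries. The authors deposited UMI counts per gene and cell, made with Cell Ranger 3.1.0 on the mouse build mm10 (GRCm38) and not normalized. Cells were taken with at least 1000 genes. Members, stroma and endothelial cells were gated by UMIs as stated in the results. The members and the gene lists were chosen with earlier results of these data known. Counts were summed per class and library and scaled to CPM.

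Pericyte-gated cells were compared with stroma by edgeR 4.0.16 in R 4.3.3 (quasi-likelihood test, TMM factors, filterByExpr, library as block, 10 sums). P-values were adjusted by Benjamini and Hochberg over the 11312 genes past the filter. The 12 genes with the largest and the 12 with the smallest fold were named among those called, with 1 direction in all 5 libraries and at least 10 UMIs in the higher class of each library. Rule genes, haemoglobins and genes without a symbol were left out. Members of 21 lists could also be named. Genes are not tested between ages, since each age is 1 library. Scrublet, run in scanpy 1.11.5, marked doublets, which were kept and left out as an alternative. For thinning, UMIs were drawn without replacement down to 2000 in each cell, and shallower cells were left out. Intervals are exact Poisson or exact binomial, at 95%, and cover counting error only. Alternatives changed the normalization (DESeq2 1.42.0, median-ratio factors), filters, gates, depth and libraries. Gene positions are from GENCODE vM21, which matched 31011 of 31053 genes, and promoters from RefSeq. Some genes that the naming rule or the lists hold are not reported here.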

Additional observations from a re-analysis of the deposited data

Results flagged for a closer look

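The gate also found cells in the libraries outside the ages described, E11.5 and E12.5, from tissue dissociated for 20 min, where it was not used for any comparison. These entries were raised because a signal appeared in data that no comparison used, above the limit that a count of 0 allows. At E11.5, 452 of 7972 cells (5.67%) met it, against a limit of 0.0376%, and at E12.5, 78 of 4244 (1.84%), against 0.0707%. At E11.5 these cells had no Higd1b UMI, 6.82 CPM of Kcnj8 and 995 CPM of Acta2, which was at 198 CPM in the stroma of that library, and 7.30% of them had at least 2 UMIs of Abcc9, Kcnj8, Higd1b and Ndufa4l2. At E12.5 Higd1b was again at 0, Kcnj8 was at 67.8 CPM and Acta2 at 292 CPM, and 35.9% had at least 2 such UMIs.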

How the results depend on the processing

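The counts of genes called depended on the pairing of both classes within a library and on depth. With no library block, 446 genes were higher and 162 lower, 73.4% of calls were higher in place of 53.5%, and 75 genes of the fixed lists were called in place of 129. With every cell thinned to 2000 UMIs, 453 were higher and 372 lower, of 8062 genes tested, and 14 of the 24 genes named by rule were still called. With stroma of at least 30 collagen UMIs, 15 of the 24 were called, of 8856 genes tested. With members restricted to those with 2 or more UMIs of Abcc9, Kcnj8, Higd1b and Ndufa4l2, a choice made after the values were seen, 1185 genes were lower and 42.5% of calls were higher. Leaving out 1 library at a time gave 595 to 841 higher and 492 to 606 lower genes, 112 to 137 calls in the lists and 19 to 24 of the named genes. Without both E14.5 and E18.5, chosen after the cell counts were seen, the counts were 852, 531, 147 and 24. Median-ratio size factors gave 823 and 772, DESeq2 719 and 526, and no filter on low counts 898 and 976 of 22770 genes. Pericyte markers called higher ranged from 13 to 19 and Notch genes from 5 to 8 over the settings run. No paired analysis between ages was possible because the labels give 1 library per age, so that no replicate numbers pair samples. Within a library both classes were paired by the library block of the test.

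With 1 UMI of Rgs5 as the minimum, the gate held 0.459%, 2.89%, 1.09% and 1.88% of cells in the libraries from E14.5 to P1, and with 3 it was 1.32% at E16.5. With Pdgfrb and Notch3 both required it was 0.0102%, 1.33%, 0.353%, 1.04% and 0.960% in the order of age. A minimum of 200 genes gave 1.36% at E16.5, and one of 2000 genes 1.09% at P1 and 0.755% at P5. With members of at least 2 pericyte gene UMIs it was 1.26% at E16.5. Thinning gave 0.0103%, 0.392%, 0.266%, 0.783% and 1.09%. Of 144 called genes followed through the settings, 59 were tested and called under all 19, 22 were called wherever they were tested, and 63 were tested and not called under at least 1. The difference in Dppa3 (log2 -2.09) was lost, at a log2 fold change of 0.0043 with an adjusted p of 0.997, under the same germ cell and endothelial limits on stroma. The cause was not tested for any of these. With 11 members and 93173 UMIs at E14.5, a gene with no UMI there may have up to 32.2 CPM.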
